A study of Rattus norvegicus with 12 samples.

Results

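At 12 h after partial hepatectomy (PH), 159 of 8448 rat liver genes compared lay at least 2-fold apart between the BF and BA columns of the RNA sequencing table. Of these, 95 were higher in BF (1.12% of the genes compared) and 64 were lower (0.758%). The counts depend on the RPKM added before the ratio, with 198 higher and 100 lower for 0.1 RPKM and 51 and 36 for 5 RPKM. A gene entered if its mean over all 12 columns was at least 1 RPKM (reads scaled to transcript length and to the total of mapped reads), and was chosen if the log2 ratio of BF to BA, after adding 1 RPKM to both values, was 1 or more in size. The ratio chose the genes, so it is given here as a description. The table lists 14692 genes, of which 12388 were above 0 in at least 1 column and 8459 passed the mean of 1 RPKM. The 8448 genes compared leave out 11 genes of a pancreatic acinar list, 3 of which were at least 2-fold apart and were set aside.

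Livers came from male Sprague Dawley rats aged 4 to 5 months, and every rat of the BF, BA and Control groups carried a catheter in the duodenum with a saline infusion. BF and BA rats had a biliary fistula, which drains bile to the outside, placed 24 h before PH, and Control rats had a sham fistula operation. In 1 of the fistula groups sodium taurocholate, a bile acid, was given with the infusion, starting 12 h before PH and at 0.5 mg/g/day. Sources differ on which group this was. The study's text uses BF for the fistula alone and BA for the fistula with bile acid infusion, whereas the sample descriptions call BA the group without bile and BF the group with infusion. Groups are therefore named here by the prefix of their column, and which of them lacked bile acids is uncertain. CYP7A1, whose transcription is lowered by bile acids, was highest in BF at each time (387 RPKM at 0 h, with 54.9 RPKM in BA and 60.0 RPKM in Control), and this was not used to assign the groups. The conflict does not alter any ratio, only what it stands for. Values are the authors' means over 2 runs of sequencing, of which 1 used a single rat and the other a pool of 3 rats, so that no spread between rats is known, no difference below has a replicate check, and no p-value is given. The number of reads behind each value is unknown.

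Hepatocytes make bile acids from cholesterol, conjugate them with taurine or glycine and secrete them into bile, and most return to the liver from the intestine through the portal vein. Returning bile acids lower transcription of CYP7A1, the rate-limiting enzyme of the classic pathway, through the nuclear receptor FXR in liver and through a hormone that FXR induces in the ileum. After PH the remaining hepatocytes leave quiescence together, and the hours around 12 h in the rat lie before most of them begin DNA synthesis.

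The BF and BA columns at 12 h were alike in overall composition. Their RPKM summed to 745164 and 727435, and the 10 most abundant genes took 41.0% and 40.6% of these sums. The BA column at 4 h stood apart from the other columns, with a sum of 982826 and 53.2% in its top 10 genes. Hepatocyte markers summed to 76492 RPKM in BF and 76532 RPKM in BA at 12 h, and macrophage markers to 137 RPKM and 117 RPKM. The 9 defining markers of pancreatic acinar cells summed to 134 RPKM in BF, 10.2 RPKM in BA and 9.55 RPKM in Control at 12 h, against 5.10 to 23.0 RPKM over all columns other than BF at 12 h, and 8 of the 9 were highest in BF at 12 h. All 4 islet hormone markers (INS1, INS2, GCG and SST) were at 0 in BF at 12 h. Of 40 acinar genes in the table, 28 of the 38 above 0 were highest in that column. CTRB1, a chymotrypsinogen, was at 84.7 RPKM in BF and 0 RPKM in BA. PRSS1, a trypsinogen, was at 16.6 RPKM and 0 RPKM, and CPB1, a carboxypeptidase, was at 11.9 RPKM and 0.52 RPKM. The part of pancreatic RNA in the other differences was not tested. In whole liver, fewer cells of a type and less RNA per cell cannot be told apart.

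Most of the 159 genes differed modestly. The median log2 ratio was 1.28 among the higher genes and -1.37 among the lower ones, and 13 and 11 genes were 4-fold or more apart. The larger of the BF and BA values was under 5 RPKM for 18 higher and 10 lower genes and at least 100 RPKM for 21 and 23, so the lower genes included a larger share of very abundant transcripts. The ratio is on the log2(RPKM + 1) scale and understates the change of genes near 1 RPKM.

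**Figure D1:**
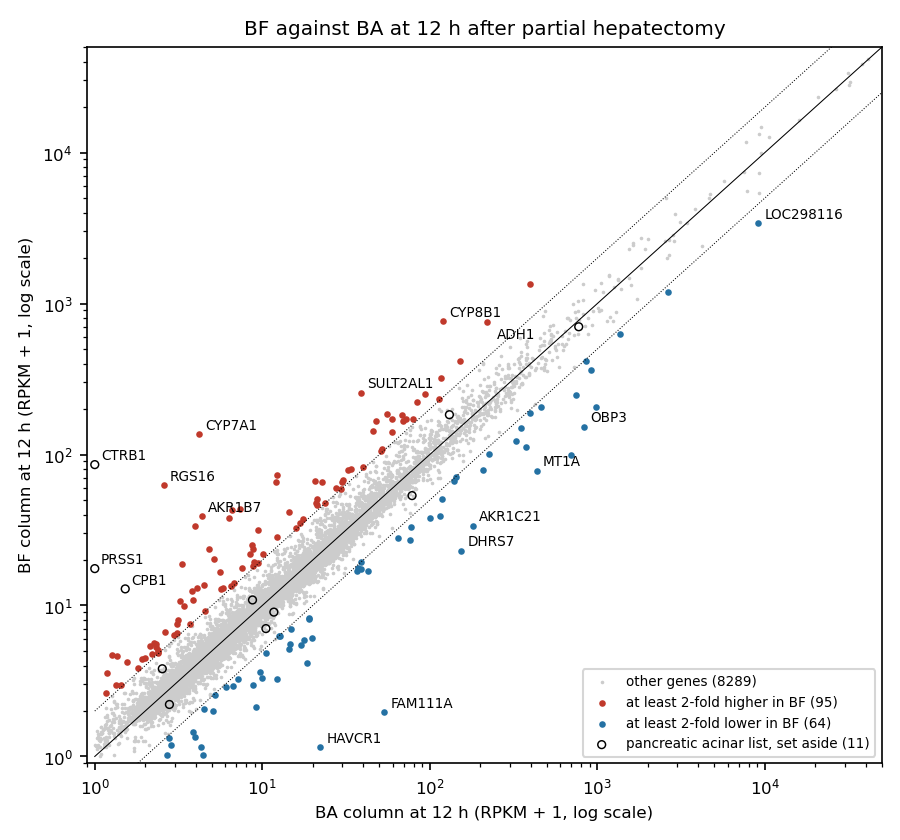
Each dot is a gene, with RPKM + 1 in the BA column at 12 h on the horizontal log axis and in the BF column at 12 h on the vertical log axis. Dotted lines mark 2-fold, red and blue dots are the 95 higher and 64 lower genes, and open circles are the 11 acinar genes left out, of which CTRB1, PRSS1 and CPB1 lie far above the line.

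The highest ratio of all belonged to bile acid synthesis. CYP7A1 was at 136 RPKM in BF, 3.17 RPKM in BA and 8.53 RPKM in Control at 12 h, a log2 ratio of BF to BA of 5.04. The BF column was the high one at 12 h, and BA lay below Control by a log2 ratio of -1.19. CYP8B1, the sterol 12-hydroxylase that directs synthesis toward cholic acid, was at 767 RPKM in BF, 119 RPKM in BA and 135 RPKM in Control (log2 ratio 2.68). CYP7B1, the oxysterol hydroxylase of the alternative pathway, was at 65.5, 19.6 and 14.7 RPKM in the same order (1.69). AKR1D1, which reduces the double bond of the sterol ring, was at 414, 151 and 136 RPKM (1.45), and AMACR, the racemase that prepares the side chain for peroxisomal shortening, was at 252, 92.5 and 80.6 RPKM (1.44). In these 4 genes BA and Control lay close together and BF apart from both. Of the 16 measured genes of a bile acid synthesis list, 15 were above BA in BF, 5 of them at least 2-fold, and the median log2 ratio was 0.53 against -0.014 over all genes compared. The exception was SLC27A5, the ligase that activates bile acids for conjugation, at 143 RPKM in BF and 184 RPKM in BA. BAAT, which adds taurine or glycine, was at 326 RPKM and 220.2 RPKM.

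Transport and sensing of bile acids differed less. In a list of 12 measured transporters 9 were above BA in BF and none reached 2-fold, with a median log2 ratio of 0.35. SLCO1A1, a basolateral uptake carrier, fell just short of the limit at 113 RPKM in BF, 56.0 RPKM in BA and 78.7 RPKM in Control. ABCB4, the canalicular phospholipid exporter, was at 35.9 RPKM and 20.3 RPKM. Among 13 nuclear receptors and partners 12 were above BA in BF, with a median of 0.20, and only PPARA, the fatty acid receptor, was at least 2-fold higher. It was at 11.8 RPKM in BF, 4.67 RPKM in BA and 3.91 RPKM in Control. At the other times PPARA was instead lower in BF. It was at 11.4, 4.87 and 11.7 RPKM in BF at 0, 4 and 24 h, against 28.8, 16.2 and 21.6 RPKM in BA. NR0B2, the FXR-induced repressor of CYP7A1 known as SHP, was low in every column at 12 h, at 1.21 RPKM in BF, 0.36 RPKM in BA and 0.45 RPKM in Control. Genes of cholesterol synthesis, the pathway that supplies the substrate, were above BA in BF in 22 of 24 cases with a median of 0.39, though none was 2-fold apart. HMGCS1, an early enzyme of the pathway, was at 287 RPKM in BF, 199 RPKM in BA and 134 RPKM in Control, and EBP, a sterol isomerase, at 199, 113 and 115 RPKM.

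Enzymes that conjugate steroids, acyl groups and xenobiotics stood on both sides, with more of them higher in BF. SULT2AL1, a sulfotransferase of the 2A family that acts on steroids and bile acids, was at 256 RPKM in BF, 37.7 RPKM in BA and 19.3 RPKM in Control (log2 ratio 2.73). SULT1E1, the estrogen sulfotransferase, was at 1344, 395 and 718 RPKM (1.77), and GLYAT, which joins acyl groups to glycine, at 42.0, 5.59 and 30.0 RPKM (2.70). For GLYAT the Control column sat near BF and BA was the low one. UGT2B17 and UGT1A1, which attach glucuronic acid, were at 64.9 and 21.7 RPKM and at 172 and 78.7 RPKM in BF and BA. GSTA2, a glutathione transferase, was at 166 RPKM in BF, 46.4 RPKM in BA and 175 RPKM in Control. Of 31 measured genes of phase II conjugation 6 were at least 2-fold higher and 2 at least 2-fold lower in BF, with a median of 0.20. The sulfotransferases, glucuronosyltransferases and alpha-class glutathione transferases are families of near-identical copies, and reads of 50 bases can fall on several members, so the split between members is uncertain.

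Several dehydrogenases and reductases followed the same direction. AKR1B7, an aldo-keto reductase of lipid aldehydes, was at 38.2 RPKM in BF, 3.34 RPKM in BA and 1.60 RPKM in Control (3.17). ADH1, the main class I alcohol dehydrogenase, was at 748, 217 and 218 RPKM (1.78), and ALDH1A1, which makes retinoic acid from retinaldehyde, at 17.9, 2.31 and 2.15 RPKM (2.51). For both, BA and Control were nearly equal. HSD17B2, which inactivates estradiol, was at 19.2, 4.14 and 6.83 RPKM (1.97), and AOX3, an aldehyde oxidase, at 3.72, 0.27 and 1.35 RPKM (1.89). Among 33 measured aldo-keto reductases and dehydrogenases 7 were at least 2-fold higher and 3 at least 2-fold lower, so this list was split more than most.

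Fatty acid oxidation and ketone body genes were mostly above BA in BF, with opposite members. Of 30 measured, 25 were above and 4 below, with a median log2 ratio of 0.35. Those at least 2-fold higher were EHHADH, the peroxisomal bifunctional enzyme, at 22.7 RPKM in BF, 3.79 RPKM in BA and 17.5 RPKM in Control, PDK4, which blocks entry of pyruvate into the citric acid cycle, at 40.3, 13.4 and 5.48 RPKM, VNN1, a pantetheinase, at 20.9, 7.43 and 4.00 RPKM, and BDH1, a ketone body dehydrogenase, at 66.4, 29.2 and 26.1 RPKM. On the lower side stood the fatty acid omega-hydroxylases CYP4A3, at 624, 1366 and 531 RPKM, and CYP4A2, at 413, 855 and 423 RPKM, together with the fasting hormone FGF21, at 18.3, 37.8 and 1.47 RPKM. In these 3 genes BA was the high column, and for FGF21 both fistula groups lay above Control. CYP4A2 and CYP4A3 are close copies whose reads may be shared. CPT1A, the gate of mitochondrial oxidation, was at 150 RPKM in BF, 77.3 RPKM in BA and 22.5 RPKM in Control.

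Glucose-handling genes included 3 at least 2-fold higher and 1 at least 2-fold lower among 25 measured, with a median of 0.41. G6PC, the last step of glucose release, was at 139 RPKM in BF, 58.7 RPKM in BA and 18.9 RPKM in Control, in that order. SLC2A2, the hepatocyte glucose transporter, was at 143, 44.8 and 44.9 RPKM, and PC, which makes oxaloacetate from pyruvate, at 77.4, 31.4 and 42.7 RPKM. PFKFB1, the enzyme that sets fructose 2,6-bisphosphate, was at 16.0, 35.8 and 62.0 RPKM and so lay lowest in BF. Of 16 fatty acid synthesis genes 12 were above BA in BF, and 2 reached 2-fold: THRSP, a lipogenic thyroid-responsive protein, at 172, 58.5 and 123 RPKM, and ELOVL5, an elongase of polyunsaturated fatty acids, at 104, 50 and 49.5 RPKM.

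MCM5, MCM6, CDC2 and NS5ATP9 were low in all 3 columns at 12 h, and most genes of the cell cycle lists were somewhat above BA in BF. In a list of G1/S and DNA synthesis genes 29 of 35 were above BA, with a median log2 ratio of 0.36 and 2 genes at least 2-fold higher. MCM5, which belongs to the replicative helicase, was measured at 4.63 RPKM in BF, 1.26 RPKM in BA and 1.80 RPKM in Control, and MCM6, another subunit, at 5.41, 1.96 and 2.47 RPKM. CCND1, the G1 cyclin, went the other way at 6.71, 10.7 and 11.2 RPKM. For G2/M and mitosis 25 of 27 were above BA with a median of 0.41, and the largest ratio was that of the mitotic kinase CDC2, at 1.97, 0.34 and 0.40 RPKM. With 0.1 RPKM added in place of 1 RPKM, the G2/M median was 1.08. At 0, 4 and 24 h the list medians were -0.35, 0.15 and -1.0 for G1/S and -0.70, -0.14 and 0.37 for G2/M. Over all genes compared they were -0.076, 0.15 and 0.059. The direction at 12 h thus did not hold at all times in either list. NS5ATP9, known also as the PCNA-associated factor, was at 2.55 RPKM in BF, 0.18 RPKM in BA and 0.10 RPKM in Control at 12 h. Among 19 immediate early genes, those switched on within minutes of a stimulus, EGR1 alone was 2-fold apart, at 12.7, 3.47 and 7.22 RPKM.

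Signaling genes and secreted factors on the higher side belonged to no common list. RGS16, which shortens G protein signals, had the next highest ratio of all, at 61.5 RPKM in BF, 1.58 RPKM in BA and 1.64 RPKM in Control (log2 ratio 4.6). HDC, which makes histamine, was at 32.5, 2.95 and 2.58 RPKM (3.09), and PRLR, the prolactin receptor, at 9.72, 2.23 and 0.76 RPKM (1.73). In all of these BF alone was high. PLA2G2A, a secreted phospholipase, was at 42.7 RPKM in BF, 6.36 RPKM in BA and 9.34 RPKM in Control (2.57), and FXYD2, a regulator of the sodium pump, at 71.8, 11.3 and 37.6 RPKM (2.56). CXCL12, a chemokine, was at 65.0, 28.8 and 14.6 RPKM. PLEKHB1 was at 37.1, 5.37 and 14.3 RPKM, and UST4R, listed as a transporter, at 65.1, 11 and 14.5 RPKM. The antioxidant genes under NRF2 were above BA in BF in 18 of 21 cases with a median of 0.47. HMOX1, which breaks down heme, was at 185 RPKM in BF, 54.2 RPKM in BA and 91.3 RPKM in Control, GPX2, a glutathione peroxidase, at 9.88, 2.85 and 4.04 RPKM, and NQO1, a quinone reductase, at 54.2, 30.0 and 52.7 RPKM.

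**Figure D2:**
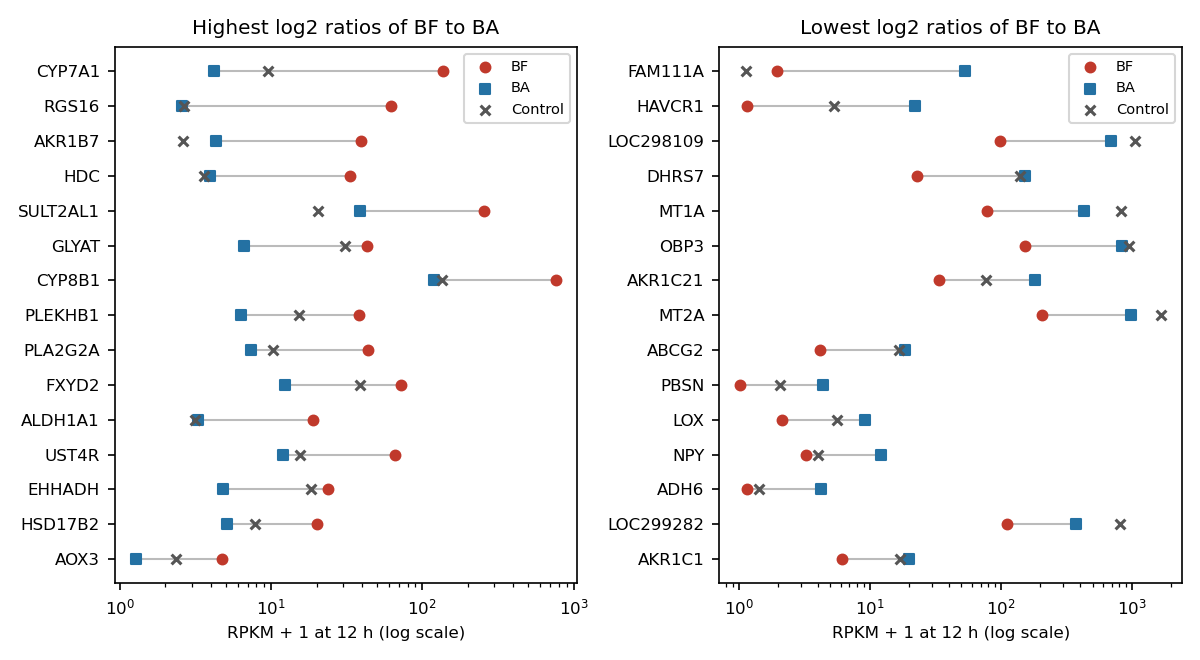
RPKM + 1 at 12 h on a log axis for the 15 genes with the highest (left) and the 15 with the lowest (right) log2 ratio of BF to BA, as red circles for BF, blue squares for BA and gray crosses for Control. For RGS16, HDC, CYP8B1 and ALDH1A1 the Control cross lies beside the BA square, while for GLYAT and EHHADH it lies nearer BF.

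On the lower side, both metallothioneins measured, the small cysteine-rich proteins that bind zinc and copper, were far below BA in BF. MT1A was at 77.3 RPKM in BF, 433 RPKM in BA and 817 RPKM in Control at 12 h (log2 ratio -2.47), and MT2A at 206, 979 and 1663 RPKM (-2.24). The order was the same for both, with BF lowest and Control highest, although reads of the 2 genes may be shared in part. At 0 h the order was the reverse, with MT1A at 350.1 RPKM in BF, 233 RPKM in BA and 59.3 RPKM in Control, and MT2A at 314, 238 and 38.0 RPKM. At 4 h MT1A was at 843 RPKM in BF and 1272 RPKM in BA, and at 24 h at 133 RPKM and 232 RPKM. Because the 2 genes differed together, their promoters are shown, as the 250 bases before the annotated start, 5′ to 3′ on the strand of the gene, from RefSeq on GRCr8. Both lie on the minus strand, MT1A at chr19:10832976-10833225 and MT2A at chr19:10838709-10838958. Capitals mark matches on either strand to the core of the metal response element, the site of the zinc-sensing factor MTF1, searched as TGCACNC and TGCGCNC.
MT1A: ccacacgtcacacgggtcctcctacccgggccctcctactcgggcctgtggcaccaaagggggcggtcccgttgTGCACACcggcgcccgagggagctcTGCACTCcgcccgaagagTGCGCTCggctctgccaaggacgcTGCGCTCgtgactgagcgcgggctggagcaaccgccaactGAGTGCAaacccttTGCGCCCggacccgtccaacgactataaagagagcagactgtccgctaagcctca
MT2A: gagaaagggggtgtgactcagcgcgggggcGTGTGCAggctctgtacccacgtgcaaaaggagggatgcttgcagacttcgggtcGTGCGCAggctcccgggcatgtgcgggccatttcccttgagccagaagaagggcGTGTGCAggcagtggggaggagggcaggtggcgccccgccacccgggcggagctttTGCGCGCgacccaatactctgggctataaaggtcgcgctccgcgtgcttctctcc
MT1A held 6 matches and MT2A 4, and none overlapped another. Of 33469 rat promoters of the same length 20.6% held at least 1 match and 0.266% held 4 or more. A match is a description of the letters and no evidence of binding.

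Abundant secreted proteins of hepatocytes were among the lower genes. The alpha-2u globulins, male rat urinary carrier proteins of the lipocalin family, were all below BA in BF. LOC298116 was at 3423 RPKM in BF, 9143 RPKM in BA and 11198 RPKM in Control (-1.42), OBP3 at 152, 831 and 943 RPKM (-2.45), and LOC298109 at 97.5, 695 and 1052 RPKM (-2.82). The related RUP2 was at 2386, 4207 and 6378 RPKM and LOC259245 at 0.29, 0.74 and 1.69 RPKM, both within 2-fold between BF and BA. In all 5 genes the order was BF, BA, Control. These genes are near-identical copies, and reads cannot be assigned to them with certainty.

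Protease inhibitors of the serpin 2 group were split. LOC299282 (inhibitor 2a) was at 111 RPKM in BF, 374 RPKM in BA and 816 RPKM in Control (-1.74), and SERPINA3K (inhibitor 2b) at 362, 919 and 1667 RPKM (-1.34). SERPINA3N (inhibitor 2c), the acute phase member, was instead at 16429, 15953 and 16865 RPKM, nearly level across the columns. LOC297568, alpha-1-inhibitor III, was at 246, 747 and 885 RPKM (-1.60), and its relatives MUG1 and MUG2 were at 128 and 213 RPKM and at 33.3 and 43.6 RPKM in BF and BA. AGT, the precursor of angiotensin, was at 1195, 2649.7 and 1699.5 RPKM. Over 28 measured acute phase genes, which the liver secretes in inflammation, the median log2 ratio was 0.018, and the 3 at least 2-fold lower were MT1A, MT2A and SERPINA3K. SOCS2, a feedback inhibitor induced by growth hormone, was at 1.90 RPKM in BF, 5.11 RPKM in BA and 24.0 RPKM in Control, whereas CISH, another such inhibitor, was at 6.94, 4.46 and 29.3 RPKM. Both fistula groups thus lay far below Control in each, and differed from each other in opposite directions.

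Steroid and drug metabolizing enzymes also stood on the lower side. DHRS7, a short-chain dehydrogenase, was at 22.1 RPKM in BF, 153 RPKM in BA and 139 RPKM in Control (-2.74). AKR1C21, a hydroxysteroid dehydrogenase of the aldo-keto family, was at 32.8, 179.7 and 76.6 RPKM (-2.42), and its relative AKR1C1 at 5.10, 18.8 and 16.1 RPKM (-1.70). AKR1C14, by contrast, was at 367, 268 and 438 RPKM, and these are again similar copies. In a list of cytochrome P450 enzymes of families 1 to 3, 26 were measured, 14 above and 12 below BA in BF, and the 2 at least 2-fold apart were CYP3A9, at 77.5, 208 and 147 RPKM, and CYP2F4, at 16.0, 41.9 and 44.8 RPKM. CYP2C, which the table gives under the subfamily name and the list did not hold, was also at least 2-fold lower in BF, at 205, 462 and 916 RPKM (-1.17). UGT2B was at 122, 328 and 317 RPKM, and ABCG2, an exporter of conjugates and drugs, at 3.14, 17.6 and 15.6 RPKM (-2.16). For DHRS7, CYP2F4, UGT2B and ABCG2 Control was near BA and BF was the low column at 12 h. Some of these genes went the other way at other times. CYP3A9 was at least 2-fold higher in BF at 0 h and 24 h, by log2 ratios of 1.07 and 1.26, and UGT2B at 4 h, by 1.21.

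A small group of amino acid synthesis enzymes was high in BA. PHGDH, the entry enzyme of serine synthesis, was at 4.53 RPKM in BF, 13.6 RPKM in BA and 4.43 RPKM in Control, and PSAT1, the next enzyme, at 2.32, 9 and 2.57 RPKM. ASNS, which makes asparagine, was at 6.03, 13.9 and 9.43 RPKM, and MTHFD2, a mitochondrial folate enzyme, at 1.05, 3.51 and 1.70 RPKM. For PHGDH and PSAT1 BF and Control were level and BA stood above. All 4 are targets of ATF4, and they were the only genes at least 2-fold apart among 27 of a list of endoplasmic reticulum stress and ATF4 genes, whose median was 0.045. The chaperones of that list were nearly level, with HSPA5 at 1186 RPKM in BF and 1079 RPKM in BA. ATF4 itself was at 128, 173 and 166 RPKM. PSAT1 was also higher in BA at 4 h, at 1.55 RPKM in BF and 9.13 RPKM in BA, and at 24 h, at 4.89 RPKM and 13.5 RPKM, but not at 0 h, at 1.45 RPKM and 1.69 RPKM. MTHFD2 and ASNS were higher in BA at the same 2 times, by log2 ratios of BF to BA of -1.80 and -1.14 at 4 h and -0.75 and -1.50 at 24 h. At 0 h ASNS was instead higher in BF, at 4.64 RPKM against 2.02 RPKM in BA, while MTHFD2 was at 0.33 RPKM and 1.04 RPKM.

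The 2 lowest ratios came from genes that were under 1 RPKM in most columns. FAM111A, which acts at replicating DNA, was at 0.96 RPKM in BF, 52.5 RPKM in BA and 0.13 RPKM in Control at 12 h (-4.77). It was also at 37.8 RPKM in BA at 0 h, at 0.11 RPKM in BA at 4 h, and at 11.3 RPKM in BA at 24 h, when BF was at 18.1 RPKM and Control at 22.6 RPKM. HAVCR1, an injury-induced receptor best known from kidney, was at 0.15 RPKM in BF, 21.2 RPKM in BA and 4.31 RPKM in Control (-4.27), and at 4 h at 0.74 RPKM in BF and 6.79 RPKM in BA. NPY, a neuropeptide, was at 2.24, 11.2 and 3.04 RPKM at 12 h and at 152 RPKM in BA at 24 h against 3.10 RPKM in BF. ADH6, a class V alcohol dehydrogenase, was at 0.15, 3.28 and 0.44 RPKM, PBSN, probasin, at 0.03, 3.43 and 1.08 RPKM, and LOX, which crosslinks collagen, at 1.13, 8.14 and 4.6 RPKM. Each value is a mean over 1 run of a single rat and 1 run of a pool of 3. If both runs count equally, the single rat weighs as much as the pool. A single animal could therefore carry such values, and its part in them was not tested.

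Other lower genes of known function were scattered over several lists. NAMPT, which recycles nicotinamide to NAD, was at 38.4 RPKM in BF, 114 RPKM in BA and 158 RPKM in Control. IGFBP3, a carrier of insulin-like growth factors, was at 7.28, 18.0 and 13.8 RPKM, while HGF, the hepatocyte mitogen, missed 2-fold at 15.4, 29.9 and 27.8 RPKM. LIPC, hepatic lipase, was at 50.1, 118 and 137 RPKM, SLC13A5, the citrate carrier, at 99.1, 224 and 295 RPKM, and LEAP2, an antimicrobial peptide, at 149.5, 347 and 355 RPKM. The defensin DEFA24, a peptide of intestinal Paneth cells, was at 0.45 RPKM in BF, 2.84 RPKM in BA and 8.95 RPKM in Control. CLCA4, ZG16 and REG3G, which the intestine also makes and of which ZG16 and REG3G stand in the acinar list too, were also highest in Control at 12 h, at 5.09, 8.98 and 8.71 RPKM, against 0.41, 2.81 and 1.21 RPKM in BF and 1.72, 1.53 and 1.79 RPKM in BA. At 24 h all 4 were highest in BF, with DEFA24 at 8.89 RPKM. REG3B, of the same family as REG3G, had another order at 12 h, at 9.88 RPKM in BF, 7.74 RPKM in BA and 3.63 RPKM in Control. The part of carried-over intestine in these values was not tested.

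The other lists with at least 5 measured genes had medians from -0.15 to 0.35, a range that also holds several of the lists described above. Oxidative phosphorylation was at -0.15, with 45 of 50 genes below BA and none 2-fold apart. The p53 and growth arrest list was at -0.058, with 9 of 16 below, ribosome biogenesis at -0.058, with 15 of 22 below, the proteasome at -0.055, with 19 of 29 below, and the urea cycle and amino acid breakdown at -0.054, with 21 of 38 below. Markers of other liver cells were likewise near 0, at -0.075 for cholangiocytes (10 genes), -0.02 for sinusoidal endothelium (11 genes), 0.03 for chemokines and macrophages (27 genes) and 0.19 for stellate cells and matrix (20 genes), and hepatocyte markers were at 0.17 (20 genes). Medians were 0.35 for immediate early genes, 0.32 for aldo-keto reductases and dehydrogenases, 0.29 for the circadian clock, 0.27 for heat shock chaperones, 0.26 for iron and heme handling and 0.21 for actin, tubulin and keratin. They were 0.089 for apolipoproteins, 0.04 for TGF-beta signaling and 0 for the growth factor and IGF axis. Lists with fewer measured genes were the islet list at -0.33 (1 gene), adipose, muscle, intestine and red cell genes at -0.36 (4 genes), neutrophils at -0.036 (2 genes) and lymphocytes at 0.15 (4 genes), and the 11 acinar genes had a median of 0.32. IL-6 and STAT3 signaling genes were divided evenly at 0.0072, with 7 above and 7 below. STAT3 was at 97.9 RPKM in BF, 147 RPKM in BA and 139 RPKM in Control. Interferon response genes had a median of 0.14, and BST2 and CXCL10 were the 2 at least 2-fold higher, at 232 and 112 RPKM and at 1.96 and 0.43 RPKM in BF and BA. Of 39 complement and coagulation genes 28 were above BA with a median of 0.23 and none 2-fold apart. Over all genes compared 47.6% were above BA in BF, and the same share was 93.8% for bile acid synthesis, 92.6% for G2/M, 91.7% for cholesterol synthesis and 10% for oxidative phosphorylation.

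**Figure D3:**
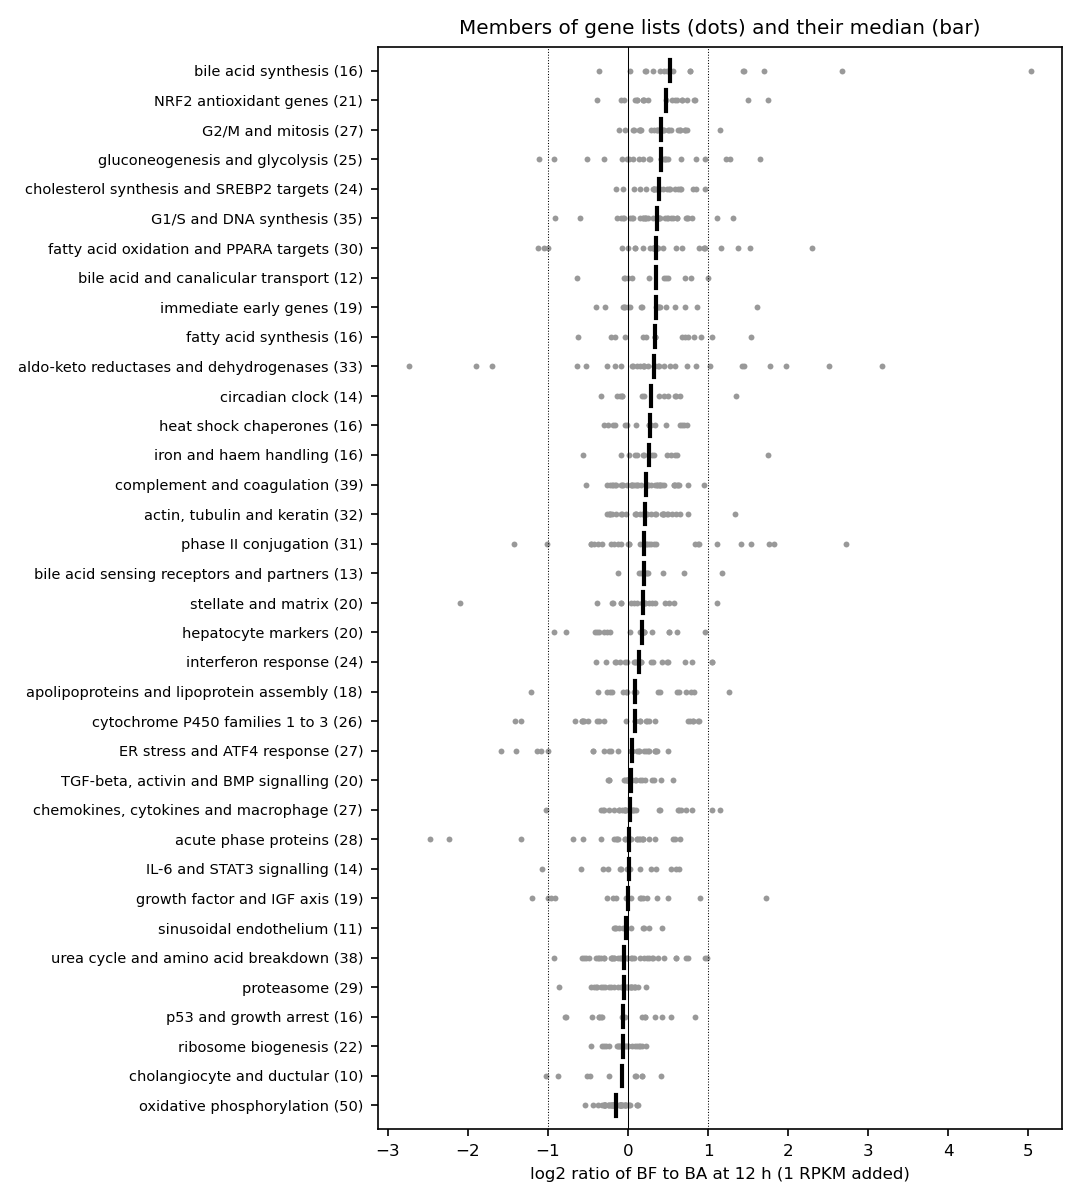
Log2 ratio of BF to BA at 12 h, with 1 RPKM added, for each gene of 36 lists (dots), leaving out the acinar list and the lists with under 5 measured genes, and the list median (bar), ordered by the median, with the number of genes measured in brackets. Medians run from 0.53 for bile acid synthesis to -0.15 for oxidative phosphorylation, and dots beyond the dotted lines are at least 2-fold apart.

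The Control column places each difference. Among the 95 genes higher in BF, Control was nearer BA on the log2 scale for 73 (76.8%), and it lay between the 2 columns for 54, below both for 32 and above both for 9. Over all 4022 genes above BA in BF, Control was nearer BA for 51.0%. Among the 64 lower genes Control was nearer BA for 46 (71.9%), against 69.9% of all 4392 genes below BA in BF, and it lay above both for 33, between for 27 and below both for 4. Thus by nearness alone the lower genes did not stand out from the background. Of those 4392 genes, however, 4238 had Control within 2-fold of both columns, so nearness there rests on small differences. Control was at least 2-fold from BF only in 35 of the 64 lower genes and from BA only in 9. Over the 4392 genes these counts were 83 and 19. Compared with Control directly, 1.8% of the genes were at least 2-fold higher and 1.66% lower in BF, and 0.592% were higher and 1.1% lower in BA. These comparisons share the Control column. Both fistula groups were at least 2-fold from Control in 4 of the 95 higher genes, against 35 of all 4022 genes above BA in BF. The same held for 9 of the 64 lower genes, against 52 of all 4392 genes below BA. Such genes were thus a minority of the members. Their share was larger than over all genes, but members were chosen for BF and BA lying at least 2-fold apart. That choice alone leaves Control less room within 2-fold of both columns. It lay there in 26 of the 95 and 11 of the 64 members, against 3828 of the 4022 and 4238 of the 4392 genes, which include the members. These counts at 2-fold from Control are therefore a description and no separate result. Among the higher genes they were PDK4 and G6PC, with both groups above Control, and CYP7A1 and PLEKHB1, with Control in between. Among the lower genes there were 9. FGF21 was above Control in both, SOCS2, LOC299282, MTMR7 and DEFA24 were among those below Control in both, and HAVCR1, AKR1C21 and PBSN had Control in between.

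At the other times, other rats carried the comparison. The background shares were 0.426% higher and 1.36% lower in BF at 0 h, 2.39% and 2.32% at 4 h, and 0.84% and 0.959% at 24 h. Of the 95 genes higher at 12 h, 6 (6.32%) were at least 2-fold higher at 0 h, 14 (14.7%) at 4 h and 13 (13.7%) at 24 h. Of the 64 lower genes, 6 (9.38%), 14 (21.9%) and 11 (17.2%) were at least 2-fold lower at those times. These shares exceed the background for the same direction. In the opposite direction, 8, 7 and 6 of the 95 higher genes were at least 2-fold apart at 0, 4 and 24 h. Of the 64 lower genes 4, 9 and 9 were. These shares also exceed the background, so the genes differed more often than most at other times in either direction. By sign alone, the higher genes were above BA in 70.5% of cases at 0 h, 67.4% at 4 h and 63.2% at 24 h, against 37.8%, 67.6% and 62.0% of all genes. The lower genes were below BA in 53.1%, 62.5% and 56.2%, against 61.9%, 32.1% and 37.6% of all genes. Of the 159, 81 were 2-fold apart at 12 h alone, 57 of them higher and 24 lower, and 37 were at least 2-fold apart in the opposite direction at another time. Beyond the genes flagged at the end, the 37 include PPARA, VNN1, CDC2 and CXCL10, which were higher in BF at 12 h. They also include CYP3A9, CYP4A2, UGT2B, SOCS2 and PFKFB1, which were lower. These classes were not counted over all genes, so only the shares for each time above serve as background.

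**Figure D4:**
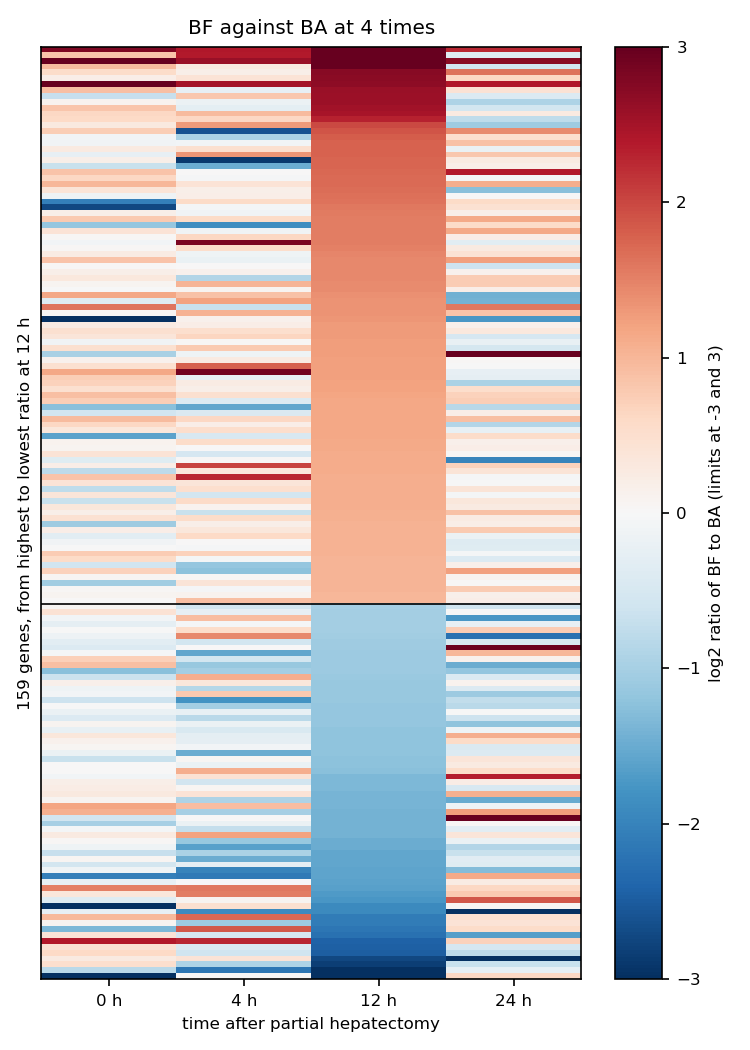
Each row is 1 of the 159 genes, ordered by its log2 ratio of BF to BA at 12 h, and each column is a time after PH. Red is higher and blue lower in BF, with colors limited at -3 and 3. The 12 h column runs from red to blue by construction, and most rows are pale at 0, 4 and 24 h.

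Only 4 genes were at least 2-fold apart the same way at all 4 times. CYP7A1 was at 387, 13.8, 136 and 334 RPKM in BF at 0, 4, 12 and 24 h and at 54.9, 1.81, 3.17 and 68.8 RPKM in BA. Its level was thus lowest at 4 h in both, and at 12 h BA was still near its 4 h value while BF was not. CYP8B1 was at 1576, 919, 767 and 1009.8 RPKM in BF and at 110.2, 161, 119 and 189.7 RPKM in BA. AKR1B7 was at 25.8, 38.6, 38.2 and 247 RPKM in BF and at 0.95, 5.59, 3.34 and 37.2 RPKM in BA. TNFRSF21, a death receptor, was lower in BF throughout, at 2.71, 54.0, 16.6 and 7.94 RPKM against 7.81, 110.3, 36.4 and 19.1 RPKM.

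Several other higher genes differed most at 12 h. RGS16 was at 12.1, 16.4, 61.5 and 3.36 RPKM in BF and at 6.39, 2.33, 1.58 and 4.65 RPKM in BA, while Control was high at 4 h instead, at 33.4 RPKM. ADH1 was at 976, 460.0, 748 and 2328 RPKM in BF and at 1055, 486, 217 and 1269 RPKM in BA. The columns were close at 0 and 4 h, and at 12 h BA and Control were at their lowest. SLC2A2 and AMACR were at their lowest at 12 h in all 3 groups, and the distance to the 4 h value was smaller in BF. SLC2A2 was at 143 RPKM in BF at 12 h and 164 RPKM at 4 h, and at 44.8 RPKM and 142 RPKM in BA, with Control at 44.9 RPKM and 336 RPKM. AMACR was at 252 and 456 RPKM in BF, at 92.5 and 419 RPKM in BA and at 80.6 and 501 RPKM in Control at 12 and 4 h. SULT2AL1 was at 201, 94.1, 256 and 410.0 RPKM in BF and at 137, 82.8, 37.7 and 133 RPKM in BA.

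**Figure D5:**
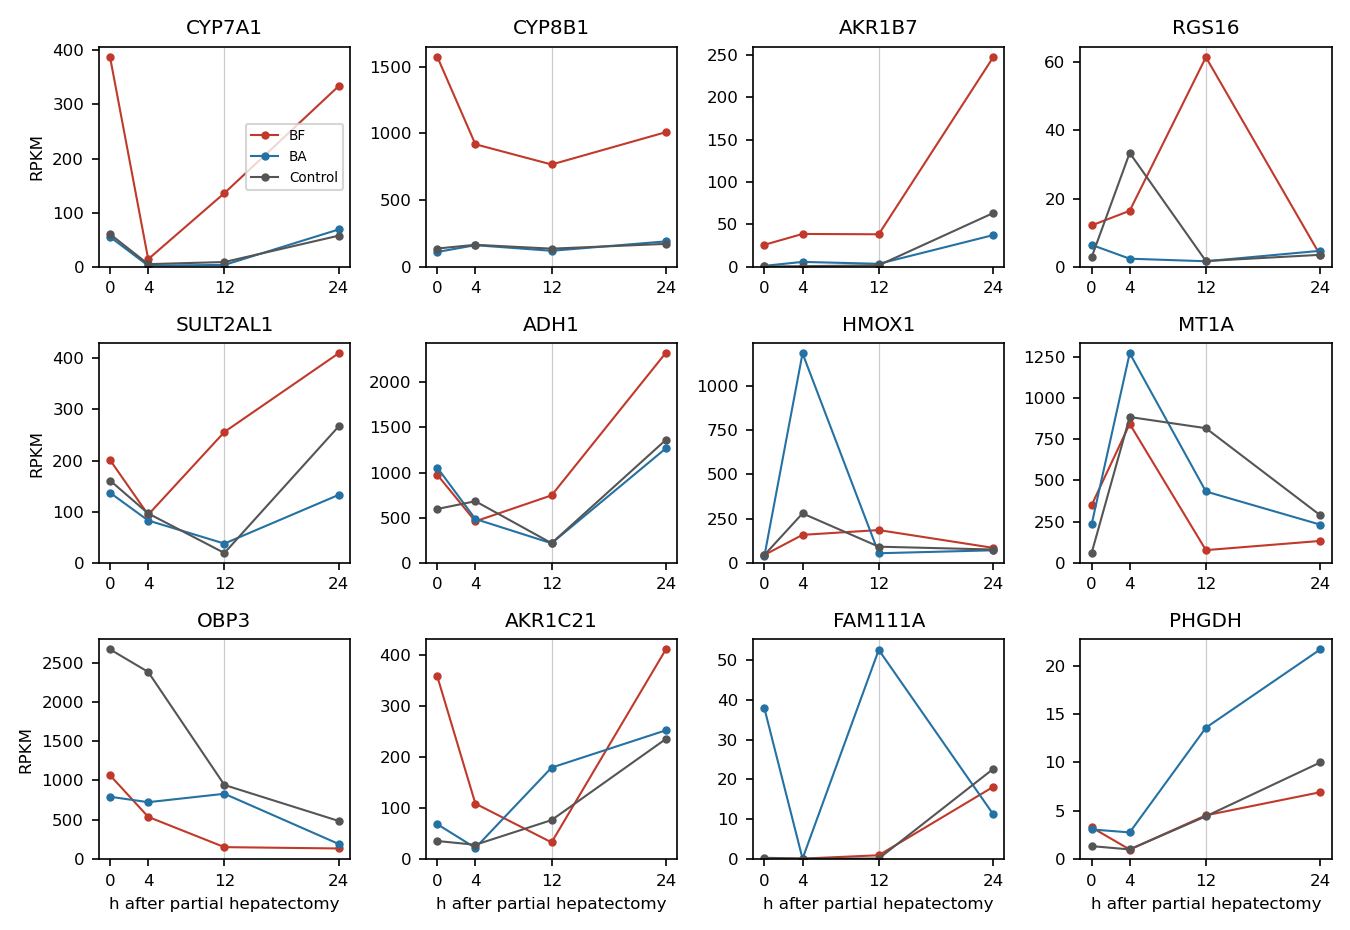
RPKM at 0, 4, 12 and 24 h after PH for 12 of the genes, with BF in red, BA in blue and Control in gray, and 1 averaged value per point without error. CYP8B1 and AKR1B7 are higher in BF at all times, RGS16 is high in BF at 12 h, and FAM111A is high in BA at 0 and 12 h.

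Genes near the limit show how it divides the table. The 3 just inside on the higher side were SERPINA6, the corticosteroid carrier, at 58.2 RPKM in BF and 28.4 RPKM in BA, MANBA, a lysosomal mannosidase, at 8.17 and 3.57 RPKM, and AVPR1A, the vasopressin receptor, at 46.4 and 22.7 RPKM. Just outside were SLCO1A1, LECT2, at 71.3 and 35.4 RPKM, and APOL3, at 10.4 and 4.75 RPKM. On the lower side GSTM2, at 69.8 and 142 RPKM, FGF21, and ZBTB16, at 5.28 and 11.6 RPKM, were just inside, and DDIT4, at 1.98 and 4.94 RPKM, LOC691921, at 4.98 and 10.8 RPKM, and GM2A, at 215 and 425 RPKM, just outside.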

How the data were processed

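Whole liver RNA sequencing of 3 groups at 0, 4, 12 and 24 h after PH was analysed from 1 deposited table of RPKM values, which the authors computed per transcript length and library total and averaged over 2 runs before depositing, so that values carry no error. Reads were 50 bases long. The submitters' processing notes name CASAVA, Bowtie 0.12.2 and the builds rn4 and mm8 with no roles, and the annotation is not given in the sources used here. RPKM depends on the most abundant genes of a library, and depth is unknown. Of 14692 genes, 1 had no value and 2303 were at 0 everywhere. All 12 columns matched samples by title, and 0 columns of samples were left unused.

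Ratios were log2 of RPKM + 1, for genes with a 12-column mean of at least 1 RPKM, and 2-fold was the limit. Alternatives were 0.1 or 5 RPKM added, no filter, a mean of 5 RPKM, and rescaled columns. Medians are given for 41 gene lists, without a test, 5 of which (the acinar list and 4 with under 5 measured genes) are not plotted. The comparison and all lists were chosen with earlier results of these data known. Named genes were the 15 highest and 15 lowest ratios, up to 5 members at least 2-fold apart in each list (otherwise up to 2 with the largest ratio), the 3 genes on each side of the limit in each direction, and genes 2-fold apart the same way at all times, 116 in all, some of which are not reported here. Genes named beyond these, among them ADH1, AGT, ATF4, BAAT, CCND1, CISH, CPT1A, CYP2C, CYP4A2, HGF, HSPA5, LEAP2, MTMR7, NAMPT, NQO1, NR0B2, EBP, HMGCS1, NS5ATP9, SLC13A5, SLC27A5, STAT3 and UGT1A1, and the alpha-2u globulin, serpin, murinoglobulin, aldo-keto reductase, defensin and intestinal genes, were chosen after their values were seen. The ratio script was tested on simulated data. Promoters are from RefSeq on GRCr8, used for no other purpose, and matched for both metallothioneins by symbol. Python 3.11.15, numpy 2.4.6, pandas 2.3.3 and matplotlib 3.10.9 were used. The quantitative PCR, histology and mouse data were not analysed here.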

Additional observations from a re-analysis of the deposited data

Results flagged for a closer look

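The following 15 genes named in the text were at least 2-fold apart between BF and BA at 12 h and at least 2-fold apart in the opposite direction at another time, with log2 ratios that differed by 3 or more. Each ratio rests on 1 averaged column per group and the difference between times was not tested.

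Among genes higher in BF at 12 h, HMOX1 differed by 4.65 from its ratio at 4 h, when it was at 1182 RPKM in BA and 158 RPKM in BF, MCM5 by 4.57 from 0 h, when it was at 11.8 RPKM in BA and 0.34 RPKM in BF, and AOX3 by 4.51 from 4 h, when it was at 17.8 RPKM and 2.07 RPKM. NS5ATP9 differed by 4.32 from 0 h, when it was at 7.86 RPKM in BA and 0.33 RPKM in BF. EGR1 differed by 3.66 from 0 h, THRSP by 3.40 from 4 h, MCM6 by 3.10 from 24 h, when it was at 71.5 RPKM in BA, 17.4 RPKM in BF and 75.8 RPKM in Control, and HSD17B2 by 3.05 from 24 h.

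Among genes lower in BF at 12 h, AKR1C21 differed by 4.79 from 0 h, when it was at 359 RPKM in BF and 68.6 RPKM in BA. DEFA24 differed by 4.71 from 24 h, when it was at 8.89 RPKM in BF and listed at 0 in BA. ABCG2 differed by 4.03 from 4 h, PBSN by 3.82 from 4 h, SERPINA3K by 3.69 from 24 h, when it was at 925 RPKM in BF and 181 RPKM in BA, LOC299282 by 3.61 from 24 h, and AKR1C1 by 3.24 from 4 h. SERPINA3K and LOC299282 are both inhibitors of the serpin 2 group, and at 24 h both were highest in BF. At 4 h the BA column also stood apart in its sum of RPKM, and the part of this in the 4 h ratios was not tested.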

How the results depend on the processing

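Most values kept their size. Under the alternatives, 244 of 251 medians and 553 of 596 ratios of single genes stayed within 1.5-fold of the reported value, and 5 medians changed sign. No gene at least 2-fold apart changed sign, but this was no check. Neither the RPKM added nor a filter can change the sign of a single ratio. The median of the genes compared was 9.35 RPKM in both columns at 12 h, so rescaling on it could not reverse a 2-fold difference. With 0.1 RPKM added, 198 genes were higher and 100 lower in BF, all 95 and 64 among them, and with 5 RPKM added 51 and 36 were. The number of genes lower at all 4 times was 2 with 0.1 RPKM and 0 with 5 RPKM, and the G2/M median was 1.08 with 0.1 RPKM. With no filter 101 and 65 genes were 2-fold apart, 81 and 51 at a mean of 5 RPKM or more, after rescaling on the median gene 101 and 68, and after rescaling without the 10 most abundant genes 94 and 68, of which 93 and 64 were shared. The acinar list median was 0.93 without a filter and turned to -0.26 at a mean of 5 RPKM or more, where the chemokine list median was -0.022 and the cholangiocyte list median 0.091, both of opposite sign. Without the 10 most abundant genes the acute phase median was -0.0002 and the IL-6 and STAT3 median -0.0087. The cause of these shifts was not tested, beyond that a filter changes which genes enter. No paired analysis was possible because each group has 1 averaged column at each time, and for the same reason no replicate could be left out. Depth is unknown, so that precision at low RPKM cannot be stated.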
